A study of Monodelphis domestica and Mus musculus with 2 samples.

Results

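IT_C is one of the intratelencephalic (IT) subclasses of glutamatergic neurons in the primary visual cortex (V1) of the gray short-tailed opossum, a marsupial. The IT_C cells described here are the segmented cells on 1 Stereo-seq chip that passed the authors' filter and carry both the class label glutamatergic and the subclass label IT_C. They number 262 of the 3752 glutamatergic cells in V1 (6.98%, exact 95% interval 6.19 to 7.85%), of 1992 IT cells (13.2%) and of 4806 V1 cells in all (5.45%). They come from 3 V1 regions of the chip, which hold 94, 94 and 74 of them. The comparison cells of the same regions are 1594 IT_A, 126 IT_B and 115 L5PT cells.

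The study set the cell types of opossum V1 beside those of mouse V1 by single-nucleus sequencing and by Stereo-seq, which captures polyadenylated RNA of a thin section on a chip of barcoded spots. The opossum tissue came from 1 adult male of about 6 months, whose coronal slices were embedded together, and was cut at 10 µm. The mouse section, used here only beside the opossum, came from a male wild-type C57BL/6J mouse at about postnatal day 40. With 1 animal per species, neither cells nor regions are replicates, so differences are given with counting intervals and region by region, with no test. The study did not quantify cell densities from these data because transcripts can be lost, which limits shares of cells in the same way. No cell barcode was shared by both libraries.

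IT neurons are excitatory neurons of the cortex whose axons stay within the telencephalon, linking cortical areas, both hemispheres and the striatum. In placental mammals they occupy most layers, and those of layer 5 lie among pyramidal tract neurons, which project to the brainstem and spinal cord. Transcription factors help to set these fates. FEZF2 and BCL11B mark neurons that project below the cortex, CUX1 and CUX2 mark upper layers, RORB marks layer 4 and ETV1 marks layer 5. DEPTOR encodes an inhibitor of the mTOR kinase, and its transcript is a known marker of layer 5 IT neurons in the mouse.

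The subclass labels were transferred by the authors from single-nucleus data by nearest neighbors in expression space, in 3 rounds that required 100, 75 and 50% of neighbors to carry one label. Gene differences between subclasses therefore describe what the labels already used, while position on the section was not used by them. IT_C cells were labelled late more often than their comparison cells. Of the IT_C cells, 45 were assigned in the first round, 110 in the second and 107 in the third, the last being 40.8% (34.8 to 47.1%). The third round supplied 12.9% of IT_A, 23.02% of IT_B and 20.9% of L5PT cells. First-round IT_C cells had a median of 2313 UMIs (unique molecular identifiers, counted transcripts), second-round cells 1583 and third-round cells 1104. Over all IT_C cells the median was 1455.5 UMIs, with 1598, 1699 and 894.5 in regions 1, 2 and 3, so region 3 was the shallowest. The authors' unsupervised clusters of the single-nucleus data had also been transferred to these cells by nearest neighbors. Of the 250 IT_C cells with such a cluster label, 204 (81.6%) lay in cluster 4. Both labels come from the same kind of transfer, so their agreement is no independent evidence. Cluster 4 was shared. Of its 630 cells of the glutamatergic class, IT_C made up 32.4% and IT_A 10.8%. Others carried the class label glutamatergic beside a subclass label of another class: 13.5% oligodendrocyte, 7.46% astrocyte and 6.51% Pvalb, a GABAergic subclass. Counts and shares of glutamatergic cells, and those of neighbors, rest on the class label, so they can include cells with such conflicting labels.

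IT_C cells lay in the deep part of the cortex, in the band that also held L5PT cells. Their median depth was 508 µm in a column scaled to the tallest region (773 µm), against 189 µm for IT_A, 375 µm for IT_B, 552 µm for L5PT and 691 µm for L6CT. By region the IT_C median was 522, 526 and 416 µm. Below the median depth of IT_B lay 198 of the 262 IT_C cells, or 75.6% (69.9 to 80.7%), compared with 22.4% of IT_A and 89.6% of L5PT cells. That share was 79.8, 83.0 and 63.5% in the 3 regions, so region 3 had the most IT_C cells in upper layers. Only 3 IT_C cells lay below the L6CT median. In 10 equal depth bins, IT_C reached 17.4 and 21.0% of glutamatergic cells in the seventh and eighth bins and 2.94% in the top bin.

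Depth went with the certainty of the label. The 45 first-round cells lay in a narrow band, with a median of 592 µm and an interquartile range of 72.2 µm, and all 45 were below the IT_B median. Second-round cells had a median of 526 µm, with 79.1% below it. Third-round cells had a median of 449 µm and an interquartile range of 317 µm, with 61.7% below (51.8 to 70.9%). The third round held 43.6, 34.0 and 45.9% of the IT_C cells of regions 1, 2 and 3. UMIs per cell fell in the same order, and the part of depth of sequencing in these differences was not tested.

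**Figure D1:**
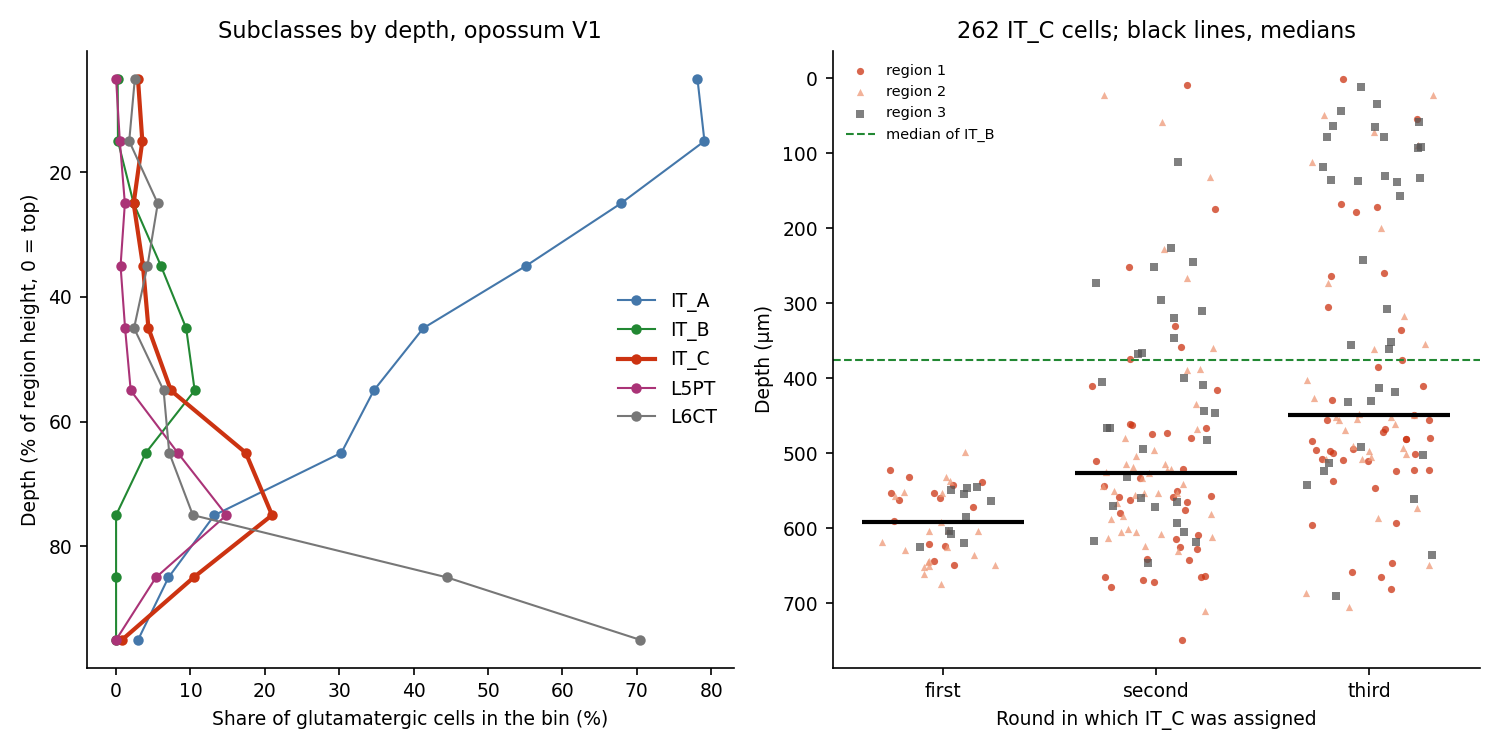
Left, share of glutamatergic cells (%) held by each subclass in 10 equal bins of depth, over the 3 opossum V1 regions. Right, depth (µm) of each of the 262 IT_C cells by the round in which the label was assigned, with symbols for regions, black lines for medians and a dashed line for the IT_B median of 375 µm; all 45 first-round cells lie below that line, and third-round cells spread through the whole column.

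Around an IT_C cell, the 10 nearest labelled glutamatergic cells reached a median distance of 42.4 µm. Of these neighbors 34.2% were IT_A, 16.6% IT_C, 10.8% L6CT, 5.88% L5PT, 3.40% IT_B and 2.06% L5NP. The rest, a larger part than that of IT_C, carried other subclass labels, which can include labels of other classes. Compared with cells of the same depth (within 25 µm) in the same region, IT_C cells had more of their own subclass around them (16.6 against 13.4%) and fewer L5PT cells (5.88 against 7.60%). Both differences had the same sign in each region. The IT_C share was 18.9, 18.1 and 11.8% among neighbors and 14.8, 14.4 and 10.4% at the same depth. The L5PT share was 7.34, 5.96 and 3.92% among neighbors and 9.57, 8.44 and 4.05% at the same depth, so the gap in region 3 was small.

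DEPTOR, the gene given as the marker of IT_C, was not high in these cells. Levels are given throughout as UMIs per 10000 UMIs on counts summed over cells, with exact Poisson intervals at 95% that cover counting error only. In regions 1, 2 and 3 the DEPTOR level was 0.77, 1.46 and 1.21 in IT_C and 1.95, 2.12 and 1.60 in IT_A, so IT_C was the lower in every region. Pooled, IT_C held 1.14 (0.84 to 1.52, 47 UMIs) and IT_A 1.96 (1.78 to 2.14, 455 UMIs), which made IT_C 1.71-fold lower (1.27 to 2.36). Among cells below the IT_B median only, a comparison chosen after the data had been seen, IT_C was 1.44-fold lower (1.001 to 2.11), which is under the fold of 1.5 used below, and the regions disagreed. There IT_C held 0.82, 1.47 and 1.73 in regions 1, 2 and 3 and IT_A 1.80, 2.13 and 1.12, so IT_C was the higher in region 3. The level was 0.80 in IT_B (17 UMIs), 1.48 in L5PT, 1.26 in L6CT and 1.27 in nonneuronal cells, and the IT_C interval overlapped each of these. In order of level, IT_A stood first and L5PT, nonneuronal, L6CT, IT_C, L5NP (0.88) and IT_B followed, and the intervals of all neighbors in this order overlapped. The 3 rounds of IT_C gave 0.86, 1.30 and 1.15, so first-round cells were no higher. At least 1 DEPTOR UMI was found in 13.0% of IT_C cells (9.16 to 17.7%, median 1455.5 UMIs) and in 11.7% of nonneuronal cells (9.35 to 14.3%, median 1155 UMIs), with intervals that overlapped. Thinned to 300 UMIs per cell, which left out 15 IT_C cells, the shares were 2.43 and 3.95%. DEPTOR thus did not set these cells apart from their comparison cells by a higher level, and they are called by their label below.

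**Figure D2:**
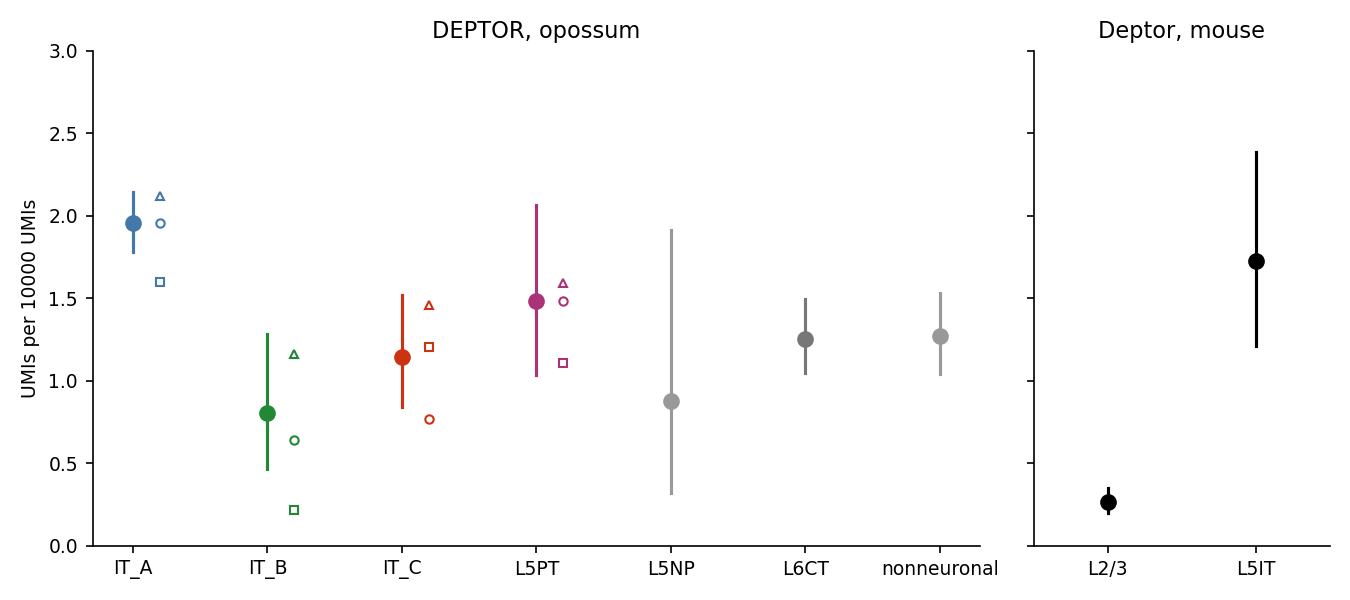
DEPTOR level (UMIs per 10000 UMIs) in opossum subclasses and nonneuronal cells of V1, left, and Deptor in mouse L2/3 and L5IT, right. Filled points are pooled levels with exact 95% Poisson intervals, and open symbols are the 3 opossum regions (circle, triangle and square for regions 1, 2 and 3) where given. Opossum IT_C (1.14) lies below IT_A (1.96), while mouse L5IT (1.72) lies above L2/3 (0.27).

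Against IT_A, other genes of the deep IT list pointed the other way. A gene counts here as past the fold when its pooled ratio was at least 1.5 and IT_C lay on the same side in each of the 3 regions. It was compared when at least 20 UMIs were expected in the smaller group, a count whose Poisson interval runs from 12.2 to 30.9. Of 12 genes listed for deep IT neurons, not all of them particular to such neurons, 9 had a feature with that symbol. Of these, 5 could be compared with IT_A. ETV1, TOX, SULF2 and FEZF2 were past the fold higher in IT_C, and DEPTOR was past it lower over all depths but not among cells below the IT_B median. Over all 4654 genes compared with IT_A, 285 (6.12%) were past the fold higher in IT_C and 325 (6.98%) lower. The median log2 ratio was 1.05 for the 5 listed genes and 0.03 for all genes. FEZF2, one of the 5, marks neurons that project below the cortex and also stood on the list for pyramidal tract neurons. It is therefore no marker of IT neurons. Against IT_B, 3 genes of the deep IT list could be compared and only ETV1 was past the fold. Of 3 compared with L5PT, none was past it in either direction. The 9 listed genes summed to 6.72 in IT_C and 7.59 in L5PT, so the list did not set IT_C apart from L5PT. The share of genes past the fold that were higher in IT_C was 46.7%, and it was 28.8% with a trimmed mean in place of total UMIs, which shifted all log2 ratios by 0.117 and left 182 of the higher genes past the fold.

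ETV1, the transcription factor of layer 5, had levels of 2.36, 2.10 and 1.33 in IT_C in regions 1, 2 and 3 and of 0.54, 0.50 and 0.48 in IT_A. The groups did not overlap, and the pooled ratio was 3.99 (2.98 to 5.33). IT_B held only 3 ETV1 UMIs, for a ratio of 14.4 (4.78 to 71.5), while L5PT held about as much as IT_C (1.87 against 2.04, ratio 1.10, 0.75 to 1.62). FEZF2, which specifies neurons projecting below the cortex, had levels of 0.77, 1.05 and 1.33 in IT_C and of 0.20, 0.15 and 0.24 in IT_A. Its pooled ratio was 5.27 (3.36 to 8.26). BCL11B, which marks the same projection class, was low in IT_C by contrast, with 0.26, 0.29 and 0.48 in the regions against 4.07, 2.09 and 3.69 in L5PT, a level 10.1-fold lower (5.54 to 19.8). TOX, an HMG-box factor, was 2.06-fold (1.48 to 2.84) and SULF2, a heparan sulfatase, 1.85-fold (1.22 to 2.75) higher in IT_C than in IT_A.

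ETV1 and FEZF2 were also compared with depth taken into account, in 2 ways that differed in outcome. Among cells below the IT_B median only, ETV1 stood at 2.24 in IT_C, 1.45 in IT_A and 1.54 in nonneuronal cells, and FEZF2 at 1.08, 0.48 and 0.83. There IT_C was 1.54-fold above IT_A for ETV1 (1.11 to 2.14) and 2.26-fold for FEZF2 (1.33 to 3.89). Both genes stayed past the fold, with IT_C the higher in each region. With all IT_A cells weighted to the depth of IT_C, the ratios were 1.07 for ETV1 and 1.11 for FEZF2, not past the fold. The part of position in these differences was not tested. The weighting leans on 25 and 11 IT_A cells in the 2 deepest bins. At least 1 ETV1 UMI was found in 19.5% of IT_C cells (14.9 to 24.8%) and 9.45% of nonneuronal cells, and in 3.24 and 2.73% after thinning to 300 UMIs.

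The 10 genes with the highest ratio of IT_C over IT_A included receptors, channels and transcription factors. First was GABRA5, the alpha 5 subunit of GABA-A receptors, at 1.28, 1.69 and 1.57 in IT_C and 0.23, 0.17 and 0.24 in IT_A by region, a ratio of 7.16 (4.84 to 10.6). PEX5L, an auxiliary subunit of HCN pacemaker channels, followed the same pattern at 2.87, 4.20 and 2.29 against 0.78, 0.68 and 0.53, or 4.75-fold. GRIK3, a kainate receptor subunit of deep layers, was at 2.74, 2.63 and 2.41 against 0.59, 0.55 and 0.70, or 4.43-fold (3.41 to 5.74). In none of these did any region of IT_C come near a region of IT_A. The rest were COL25A1 (5.42-fold), a transmembrane collagen, RAI14 (4.85), which binds actin, RPS6KA2 (4.80), a kinase of the ERK pathway, RORB (4.24), LDB2 (4.15), a cofactor of LIM-domain proteins, and the 2 factors FEZF2 and ETV1. PEX5L was also high in nonneuronal cells below the IT_B median (3.84, against 3.68 in IT_C cells there). Among cells below the IT_B median, all 10 remained higher in IT_C, from 1.54-fold for ETV1 to 9.55-fold for RAI14 (3.71 to 31.4). RAI14 had 33 and 5 UMIs there, under the minimum used for comparison. The genes were chosen from the contrast of all cells, and 198 of the 262 IT_C cells lay at these depths. That all 10 stayed higher is therefore no added evidence. With IT_A weighted to the depth of IT_C, the ratio of GABRA5 fell from 7.16 to 2.76 and that of GRIK3 from 4.43 to 2.51. The ratios of COL25A1 (4.57), LDB2 (3.39), FEZF2 and ETV1 fell too. Those of RAI14 (5.53), PEX5L (5.31), RPS6KA2 (4.94) and RORB (4.73) rose.

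RORB, the layer 4 factor, ordered the subclasses in another way. Its level was highest in IT_B at 7.50, and IT_C held 2.04, IT_A 0.48, L6CT 0.33 and L5PT 0.13. In IT_C the regions gave 1.66, 1.87 and 3.13, all above IT_A at 0.43, 0.57 and 0.41. The ratio of IT_C to L5PT was 16.1 (5.31 to 79.5), on 3 UMIs in L5PT. Weighted to the depth of IT_C, the ratio to IT_A was 4.73, close to the unweighted 4.24. At least 1 RORB UMI was found in 14.1% of IT_C cells (10.1 to 18.9%), 41.3% of IT_B and 6.50% of nonneuronal cells.

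The markers of layer 6 corticothalamic neurons summed to 9.29 in IT_C, 4.86 in IT_A, 8.86 in L5PT and 23.03 in L6CT, and to 9.29 in nonneuronal cells, the same as in IT_C. Of 11 with a feature, 6 could be compared with IT_A and 3 were past the fold higher: GRIK3, TBR1 and NTSR1. TBR1, a factor of deep-layer neurons, was at 1.91, 1.93 and 1.57 in IT_C and 1.09, 0.87 and 0.92 in IT_A, or 1.90-fold higher (1.45 to 2.48). It was 3.56-fold higher than in IT_B (1.88 to 7.44). NTSR1, the neurotensin receptor that marks corticothalamic cells in the mouse, was 2.45-fold higher than in IT_A (1.56 to 3.75), and its level was 0.78 in IT_C and 0.45 in L6CT. FOXP2, another layer 6 factor, was at 0.27 in IT_C (11 UMIs) and 4.73 in L6CT.

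Of 10 genes general to IT or glutamatergic neurons, 7 had a feature and 6 could be compared with IT_A, of which 1 was past the fold higher in IT_C and none lower. NEUROD2 and NEUROD6, factors of glutamatergic neurons, were close to IT_A, with ratios of 1.12 (0.79 to 1.56) and 1.11 (0.90 to 1.36). The gene past the fold was LMO4, a LIM-only cofactor, which was higher in IT_C than in IT_A by 2.08-fold (1.72 to 2.50) and than in IT_B by 4.47-fold.

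Upper-layer markers were low in IT_C. Of 12 such genes, 7 could be compared with IT_A, and 5 of them were past the fold lower and none higher. CUX2 stood at 0.89, 1.11 and 1.57 in IT_C and at 3.31, 3.86 and 3.82 in IT_A, 3.23-fold lower (2.40 to 4.45). CALB1, the calcium-binding protein calbindin, was 3.20-fold lower, NECTIN3, an adhesion protein, 2.78-fold, RASGRF2, an exchange factor for Ras, 2.52-fold, and CUX1 1.70-fold. The same 5 genes were past the fold lower than in IT_B, where RASGRF2 reached 8.16 against 1.27 in IT_C. None of 4 compared was past it against L5PT.

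**Figure D3:**
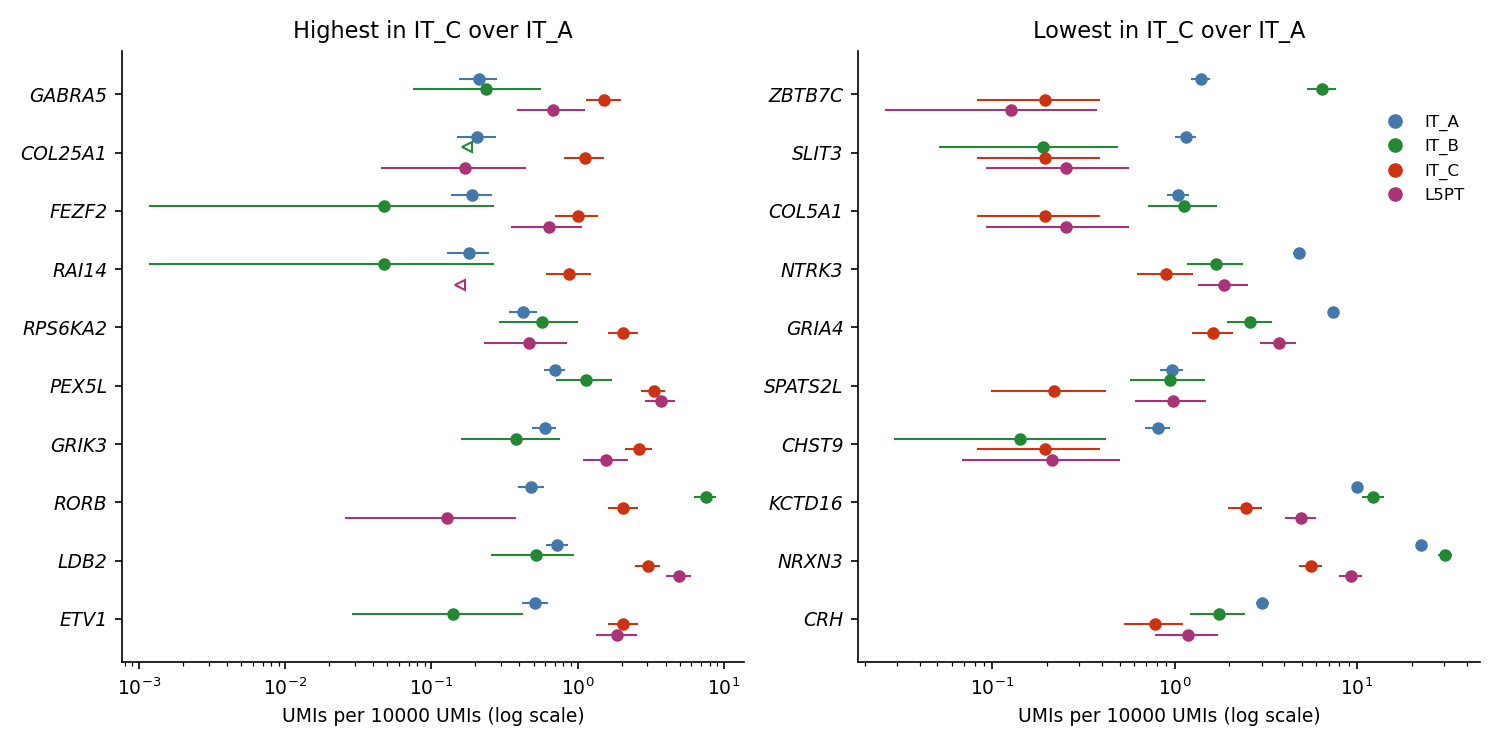
Levels (UMIs per 10000 UMIs, log scale) in IT_A, IT_B, IT_C and L5PT of the genes at both ends of the IT_C to IT_A ratio, 10 on each side. Points are pooled levels with exact 95% Poisson intervals, and open triangles stand at the upper limit where no UMI was counted. GABRA5 lies at 1.51 in IT_C and 0.21 in IT_A, and NRXN3 at 5.60 and 22.4.

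The 10 genes with the lowest ratio to IT_A included receptors and adhesion and guidance genes. NRXN3, a presynaptic neurexin, was at 7.66, 3.39 and 6.27 in IT_C against 24.4, 22.3 and 17.6 in IT_A, 4.00-fold lower. GRIA4, an AMPA receptor subunit, was at 2.23, 1.23 and 1.33 against 7.52, 7.87 and 5.97, 4.53-fold lower (3.55 to 5.87). KCTD16, an auxiliary subunit of GABA-B receptors, was at 2.17, 3.04 and 1.81 against 9.02, 10.7 and 11.2, 4.10-fold lower. In each of these genes every region of IT_C lay well under every region of IT_A. NTRK3, the receptor of neurotrophin 3, was 5.34-fold lower, and CRH, the neuropeptide corticotropin-releasing hormone, was 3.90-fold lower. ZBTB7C, a zinc finger factor, was the lowest by ratio, with 8 UMIs in IT_C and a level 7.16-fold lower than in IT_A and 32.9-fold lower than in IT_B. SLIT3, a guidance ligand, was 5.92-fold lower, COL5A1, a collagen, 5.37-fold, SPATS2L 4.40-fold and CHST9, a sulfotransferase, 4.18-fold. Below the IT_B median, all 10 remained lower in IT_C than in IT_A, from 1.99-fold for GRIA4 to 12.0-fold for ZBTB7C (5.32 to 33.4). SLIT3 and CHST9 had too few UMIs there for the minimum used. These genes too were chosen from the contrast of all cells, so this is no added evidence. With IT_A weighted to the depth of IT_C, NTRK3 was 2.81-fold lower, GRIA4 2.17-fold and CRH 1.72-fold, each less than without weighting. The same held for NRXN3, KCTD16, COL5A1, SPATS2L and, by little, ZBTB7C (6.79-fold). SLIT3 (6.81-fold) and CHST9 (5.21-fold) went the other way.

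Gene families differed in which members moved. The counts against IT_A below stand beside 6.12% higher and 6.98% lower over all genes compared. Of 4 AMPA receptor subunits, GRIA1 (1.67-fold) and GRIA4 were past the fold lower in IT_C than in IT_A and none higher. Of 3 kainate subunits compared, GRIK3 was higher than in all comparison subclasses, and GRIK2 was 4.84-fold lower than in L5PT (2.70 against 13.1). Of 16 potassium channel subunits compared with IT_A, 6 were past the fold lower, among them KCND2, KCNH1, KCNH5 and KCNH7, and 1 higher. The higher one was KCNT2, a potassium channel gated by sodium, at 4.40, 8.12 and 3.01 in IT_C and 1.64, 1.96 and 1.74 in IT_A, or 3.18-fold (2.69 to 3.74), and it was 8.91-fold higher than in L5PT (5.29 to 16.2). Of 32 layer transcription factors, 26 were compared with IT_A, and 7 were past the fold higher (FEZF2, TBR1, RORB, ETV1, ZFPM2, NFIB and LMO4) and 3 lower (CUX1, CUX2 and ID2). Of 20 genes of the mTOR pathway, 11 could be compared with IT_A, and DEPTOR was the only one past the fold. A count of 1 in 11 does not set the pathway apart from all genes. Of 19 guidance genes compared, SEMA5A (1.96-fold), EFNB2 (1.75-fold) and NTNG2 (3.49-fold) were higher and EPHA3, EPHA4, SLIT1 and SLIT3 lower.

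Against IT_B, the layer 4 subclass, 278 of 2595 genes (10.7%) were past the fold higher in IT_C and 278 (10.7%) lower. After ETV1, the highest were GRIK3 (6.97-fold, 2.63 against 0.38), LDB2 (5.82-fold), MAP3K5 (4.59-fold), a stress kinase, LMO4 and SV2B (3.64-fold), a synaptic vesicle protein. RPS6KA2, TBR1, VSTM2A and ARRB1, a beta-arrestin, completed the first 10. The lowest after ZBTB7C was TAFA2, a secreted TAFA-family protein, at 1.91, 1.23 and 2.77 in IT_C and between 18.9 and 20.4 in IT_B, 11.1-fold lower. TRPM3, a cation channel, was 10.4-fold lower, SNTG1, a syntrophin, 8.98-fold, and HTR2A, a serotonin receptor, 7.75-fold. ADCY8, an adenylyl cyclase, was 7.69-fold lower, KCNH1 6.94-fold, TRHDE, a peptidase, 6.66-fold and PDE7A, a phosphodiesterase, 5.69-fold.

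Against L5PT, whose depth was closest to that of IT_C, 216 of 2863 genes (7.54%) were past the fold higher in IT_C and 211 (7.37%) lower, so 50.6% were higher, or 61.9% with the trimmed mean. After RORB, the highest was SEMA5A, a guidance semaphorin, at 1.59, 3.56 and 2.17 in IT_C and 0.19, 0.40 and 0 in L5PT, 9.95-fold higher on 6 UMIs in L5PT (4.42 to 27.7). KCNT2, CDK5RAP2 (5.93-fold), a centrosome protein, PRR16 (4.43-fold) and RASA3 (4.41-fold), which turns off Ras, were next. PTPRK, a receptor phosphatase, CNTN5, a contactin, and SIDT1 were 4.23, 3.70 and 3.67-fold higher, and RPS6KA2 4.38-fold. The lowest were SORCS1, a sorting receptor, at 11.9-fold lower, CDH13, a cadherin without a cytoplasmic domain, at 10.3-fold and BCL11B. TRPC4, a cation channel, was 8.50-fold lower, KIF26B, a kinesin, 8.22-fold, NTNG1, a netrin-G adhesion protein, 6.91-fold and NAV1 6.10-fold. GRIK2, KLHL32 (4.81-fold) and SMYD2 (4.44-fold), a methyltransferase, followed.

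Few genes were past the fold against all 3 subclasses at once. Of 2413 genes compared in all 3, 14 (0.58%) were higher in IT_C than in each and 18 (0.746%) lower than in each. RPS6KA2 led the higher genes, at 2.04 in IT_C and between 0.43 and 0.57 in IT_A, IT_B and L5PT, so IT_C was 3.61-fold to 4.80-fold higher. Its region levels in IT_C were 2.62, 1.17 and 2.77, the lowest of them above every comparison region. MAP3K5 (at least 2.00-fold above each), CRAT (1.93), a carnitine acetyltransferase, and FSTL5 (1.78), a secreted follistatin-like protein, came next, and GRIK3, TMEFF1, CDK14, PANK2 and ARMH4 lay between 1.597 and 1.67. Some of these genes were as high or higher in deep subclasses outside the comparison. GRIK3 was at 6.55 in L6CT and 4.39 in L5NP against 2.63 in IT_C, and TMEFF1 at 3.19 and 2.93 against 2.09. FSTL5 was at 2.22 in L6CT against 2.19, and CRAT at 2.49 in L5NP (17 UMIs) against 1.34, while RPS6KA2 was at 0.47 in L6CT and 0.59 in L5NP (4 UMIs). Among the lower genes were ATP8A2, a lipid flippase of neurons, at 0.63 in IT_C and 1.74 to 2.76 in the others and RGS7, a regulator of G-protein signaling, at 1.51 against 3.36 to 5.99. RGS7 was also low in L6CT (1.39) and L5NP (1.17).

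The 10 genes highest over IT_A and the 10 lowest were then summed in groups set by depth and round. They were chosen from the contrast of IT_C with IT_A, so the sums describe how the contrast is spread and are no evidence for it. The sum of the 10 highest genes was 4.22 in IT_A, 10.6 in IT_B, 19.6 in IT_C, 14.1 in L5PT and 14.8 in L6CT. L5NP cells held 18.7 (15.6 to 22.3), an interval that overlapped that of IT_C (18.3 to 21.0). Within IT_C it was 27.7 in first-round cells (24.6 to 31.1), 21.8 in second-round cells and 9.27 in third-round cells (7.64 to 11.1). Third-round IT_C cells were close to nonneuronal cells in this sum, which held 6.42 above and 11.2 below the IT_B median. Third-round IT_A cells held 7.44 (6.44 to 8.55), an interval that overlapped that of third-round IT_C cells.

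The sum of the 10 lowest genes behaved differently. It was 53.1 in IT_A and 12.4 in IT_C, and it stayed low in each round of IT_C, at 9.42, 14.5 and 11.6. A low sum was not particular to IT_C, as L5NP held 9.51, L6CT 21.0 and L5PT 22.8, while IT_B held 57.7. Nonneuronal cells held 21.1 above and 14.01 below the IT_B median, so third-round IT_C cells also lay near nonneuronal cells in this sum. They were far from third-round IT_A cells, which held 36.3. The 64 IT_C cells above the IT_B median held 9.54 for the 10 highest genes and 16.4 for the 10 lowest, while IT_A cells above that depth held 3.55 and 57.2.

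In these sums, IT_A cells shifted in the direction of IT_C with depth. From above to below the IT_B median, the 10 highest genes rose from 3.55 to 6.53 in IT_A and the 10 lowest fell from 57.2 to 38.7, with the same direction in each region. Nonneuronal cells shifted likewise, from 6.42 to 11.2 and from 21.1 to 14.01. Deep IT_A cells still stood apart from IT_C cells below the same depth, at 21.0 and 11.8. Of 5468 genes compared between deep and upper IT_A cells, 293 (5.36%) were past the fold higher in the deep cells. Of the genes past the fold higher in IT_C that could be compared, 250 in number, 62.4% were higher in deep than in upper IT_A, against 53.5% of all genes. Of the 325 genes lower in IT_C, 31.7% were. Both gene sets were chosen by ratios to the same IT_A cells, of which 1237 of 1594 lay above the IT_B median. These shares therefore describe the contrast and are no evidence for a shift.

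**Figure D4:**
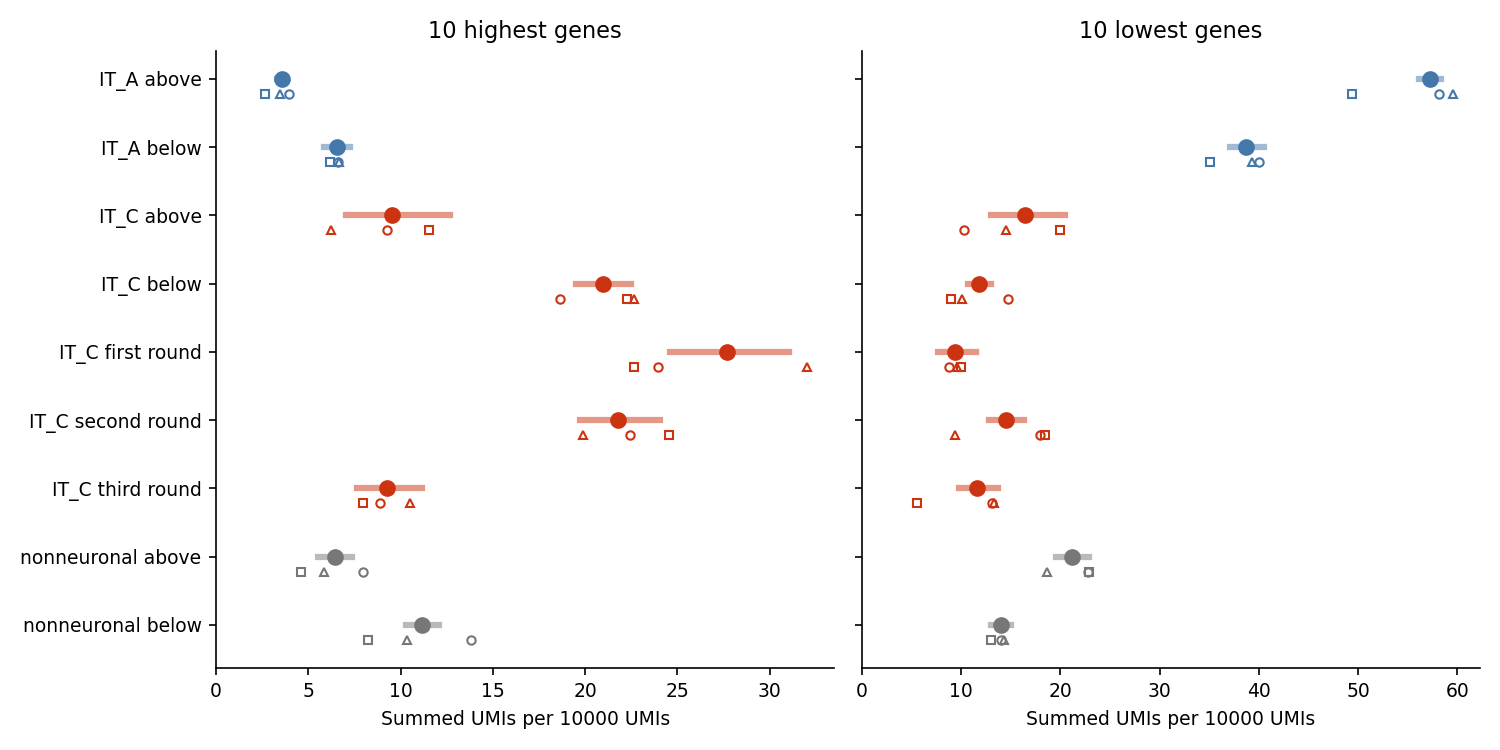
Summed level (UMIs per 10000 UMIs) of the 10 genes highest and the 10 lowest in IT_C over IT_A, in IT_A, IT_C and nonneuronal cells above and below the IT_B median depth and in IT_C cells by round. Large points are pooled sums with exact 95% Poisson intervals and open symbols the 3 regions (circle, triangle and square for regions 1, 2 and 3). The sum of the 10 highest falls from 27.7 to 9.27 from the first to the third round, while that of the 10 lowest stays between 9.42 and 14.5.

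Among themselves, IT_C cells differed with depth. Each region was divided at its own IT_C median depth, which gave 131 deeper cells (median 584 µm, 2143 UMIs per cell, 20.6% from the third round) and 131 shallower cells (385 µm, 1088 UMIs, 61.1%). Of 1726 genes compared, 173 (10%) were past the fold higher in the deeper cells and 142 (8.23%) lower. UMIs per cell and round moved with depth, and their part in these differences was not tested.

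CDH18, a cadherin, was at 3.46, 5.50 and 1.51 in the deeper cells and 1.44, 0.47 and 1.00 in the shallower cells of regions 1, 2 and 3, or 4.17-fold higher (2.37 to 7.89). DPP6, an auxiliary subunit of A-type potassium channels, was at 4.85, 6.33 and 5.46 against 0.72, 2.35 and 1.34, or 3.63-fold higher (2.33 to 5.91). For DPP6 no region of the deeper cells overlapped one of the shallower cells, while the CDH18 level of the deeper cells of region 3 was close to that of the shallower cells of region 1. MAP3K5 (4.00-fold), ADCY9 (3.83-fold), an adenylyl cyclase, NAV2 (3.43-fold) and ZFPM2 (3.34-fold), a cofactor of GATA factors, were also higher in the deeper cells. Higher in the shallower cells were LRRTM1, a postsynaptic adhesion protein, at 2.74 against 0.65 (4.22-fold, 2.34 to 7.92), HS6ST1, a heparan sulfate sulfotransferase (4.00-fold), and RASGRF2 (3.93-fold). ATP2C1, a Golgi calcium pump, VKORC1L1, a vitamin K epoxide reductase, and TESC, a calcium-binding protein, were 3.59, 3.41 and 2.84-fold higher there.

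These 12 genes were set beside the depth differences of other cells. Of the 6 genes higher in the deeper IT_C cells, 2 were higher below than above the IT_B median in IT_A and 1 in nonneuronal cells. Of the 6 higher in the shallower cells, 4 and 5 were higher above it. CDH18 was 4.17-fold higher in the deeper IT_C cells but at 2.08 below and 2.52 above in IT_A and at 1.19 and 1.53 in nonneuronal cells. ADCY9 was at 1.09 below and 2.05 above in IT_A, the reverse of its order in IT_C.

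**Figure D5:**
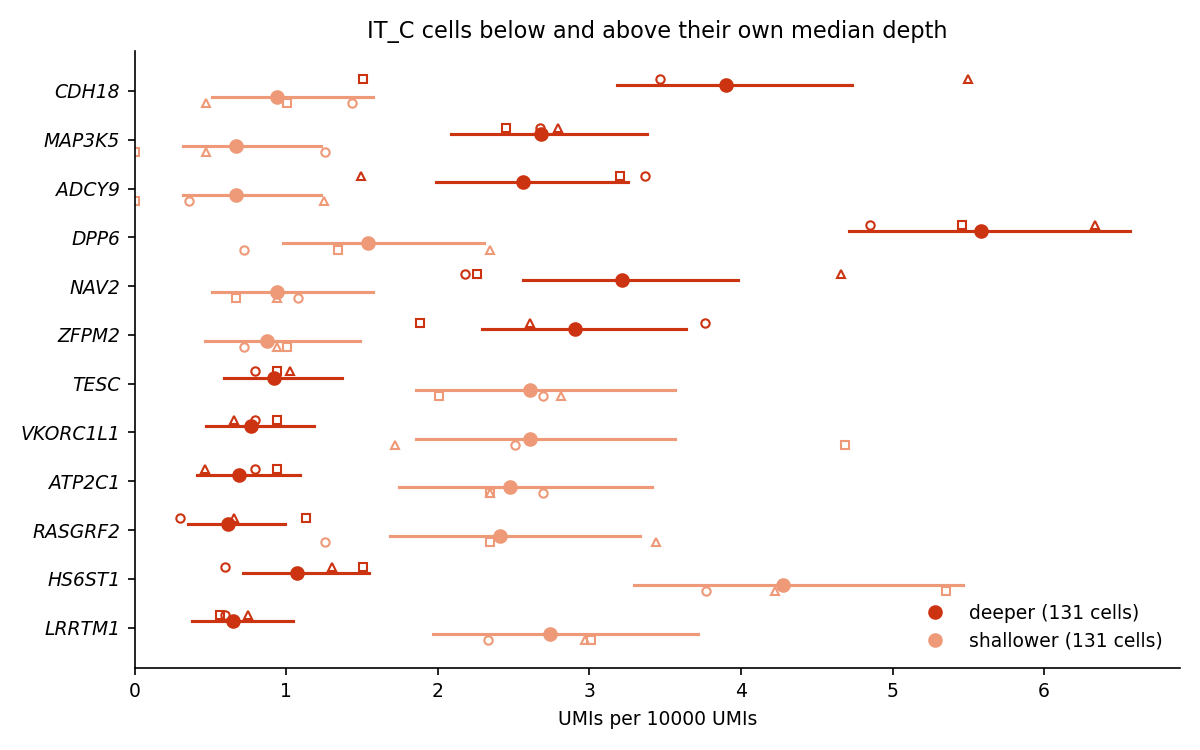
Levels (UMIs per 10000 UMIs) in the deeper and the shallower IT_C cells of the 12 genes that differed most, 6 in each direction. Filled points are pooled levels with exact 95% Poisson intervals, and open symbols the 3 regions (circle, triangle and square for regions 1, 2 and 3). The DPP6 level is 5.58 in the deeper cells and 1.54 in the shallower cells.

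Transcripts of other cell types were present in IT_C and in its comparison cells. The 9 oligodendrocyte markers with a feature, all of them detected, summed to 34.2 in IT_C (29.8 to 36.1 over regions), 25.9 in IT_A (22.3 to 27.3), 31.0 in IT_B, 37.3 in L5PT and 49.6 in L6CT, against 81.8 in nonneuronal cells. None of the 3 compared was past the fold between IT_C and IT_A, with MBP 1.37-fold higher in IT_C (1.28 to 1.46). The 9 astrocyte markers with a feature, 1 of them at 0 in IT_C, summed to 17.4 in IT_C and 15.9 in IT_A against 49.4 in nonneuronal cells, and of 5 compared SLC1A2, a glutamate transporter, was past the fold higher. The 9 GABAergic markers summed to 12.6 and 11.1 against 75.3 in GABAergic cells. The part of this RNA in the differences above was not tested.

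The mouse section was read in the same way, with 133 L5IT cells against 1406 L2/3 cells over 4 regions. There 97 of 2418 genes (4.01%) were past the fold higher in L5IT and 93 (3.85%) lower. Of 1370 genes compared in both species, IT_C was past the fold higher than IT_A in 63 (4.6%) and lower in 89 (6.5%), and L5IT was higher than L2/3 in 50 (3.65%) and lower in 56 (4.09%). Genes higher in both were CPLX1, a complexin of synaptic release, TOX, ETV1 and PEX5L, which are 6.35% of the opossum and 8% of the mouse list. Mouse Etv1 was at 1.48 in L5IT and 0.79 in L2/3, a ratio of 1.89 (1.24 to 2.80), and Pex5l was 1.92-fold higher (1.46 to 2.50).

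Lower in both were 13 genes, 14.6% of the opossum and 23.2% of the mouse list. Among them were CUX2 (3.23-fold lower in IT_C and 4.91-fold lower in L5IT), KCTD16 (4.10 and 4.58), NTRK3 (5.34 and 3.32), CALB1 (3.20 and 2.10) and NRXN3 (4.00 and 1.63). Of the 10 genes highest over IT_A, 3 could be compared in the mouse. ETV1 and PEX5L were past the fold, and LDB2 was not (1.22, 0.78 to 1.85). The other 7 had too few UMIs. Of these, GABRA5, FEZF2 and GRIK3 had mouse ratios of 2.20 (1.13 to 4.01), 3.63 (1.74 to 7.14) and 2.13 (1.15 to 3.72), and RORB 1.42 (0.82 to 2.31). COL25A1 was at 0.90 (0.17 to 2.89), RAI14 at 0.72 (0.017 to 4.87) on 1 UMI in L5IT and RPS6KA2 at 0.56 (0.26 to 1.06). GRIA4, 4.53-fold lower in IT_C, had a mouse ratio of 1.40 (1.04 to 1.87). The opossum IT subclasses had been set by unsupervised clustering. The paper reported that IT_A and IT_C corresponded only weakly, and not consistently, to mouse IT subclasses. Setting IT_C beside L5IT and IT_A beside L2/3 is thus no comparison of established counterparts. RNA integrity also differed, at 7.1 for the opossum tissue and higher for the mouse. With 1 animal per species, species differences were not tested.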

How the data were processed

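UMI counts per gene and segmented cell were produced by the authors with SAW 7.1.2, after tissue had been aligned by hand, and were deposited without normalization. Opossum reads had been mapped to the study's own version of the opossum genome, in which 3′ gene ends were extended, and cells with few genes or UMIs were removed by the authors. Positions, V1 regions, a filter flag, and class and subclass labels with their rounds were deposited too. The opossum file holds 80369 cells and 84570416 UMIs, and 11598 of its 30613 features carry a gene symbol. IT_C cells held 410998 UMIs, IT_A 2325540, IT_B 212055 and L5PT 235835.

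The minimum of 50 genes and 100 UMIs per cell was applied again, and no doublets were called. Depth was measured along the smallest rectangle enclosing a region, oriented by IT_A and L6CT, and scaled to the tallest region. Counts were summed per group and region and divided by total UMIs. Intervals are exact at 95% (Poisson, Clopper-Pearson, or conditional binomial for ratios) and cover counting error only. Without replicate animals no p-value was computed. The fold rule was tried on simulated counts drawn with counting error only from a pooled profile of IT_A and IT_C. These lack the variation between cells and regions of the real data, so they do not measure how the rule performs on it.

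The members, the 33 gene lists and the rule for named genes were chosen with earlier results of these data known. The rule takes DEPTOR, the 10 highest and 10 lowest ratios of each comparison among genes with 1 sign in all 3 regions, the 10 genes with the highest lowest ratio over the 3 subclasses, 6 per direction between deeper and shallower IT_C cells, and list members past the fold. Genes lower than all 3 subclasses, other members of the lists named for their levels, and the genes named only for both species were chosen after their values were seen. Alternatives were other folds, count minimums, cell filters, rounds, neighbor numbers, trimmed-mean scaling, thinning to 300 UMIs, weighting to the depth of IT_C and each region left out. Opossum genes are named by the symbols of the files, without coordinates. The tools were scipy 1.17.1, matplotlib 3.10.9, numpy 2.4.6 and pandas 2.3.3 under Python 3.11.15. Some genes are not reported here.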

Additional observations from a re-analysis of the deposited data

Results flagged for a closer look

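Of 1370 genes compared in both species, some were past the fold in both the IT_C to IT_A and the mouse L5IT to L2/3 contrasts. Of these, 4 were higher in both, 13 were lower in both and 4 had opposite directions. Among the 63 genes higher in IT_C, 1 was lower in L5IT, against 4.09% of all 1370. Among the 89 lower in IT_C, 3 were higher in L5IT, against 3.65% of all. Opposite directions were thus no more frequent than over all genes. The species differences of the 4 genes with opposite directions were not tested. In the paper, IT_A and IT_C corresponded only weakly to mouse subclasses. DEPTOR was 1.71-fold lower in IT_C than in IT_A, or 1.44-fold among cells below the IT_B median, while mouse Deptor was 6.49-fold higher in L5IT than in L2/3 (4.09 to 10.2, 36 and 48 UMIs). PDZRN3 was 2.39-fold higher in IT_C than in IT_A (2.05 to 2.79), and its mouse ratio was 0.211 (0.096 to 0.405, 9 UMIs in L5IT). AKAP11 had a ratio of 0.666 in IT_C over IT_A (0.452 to 0.952) and of 1.87 in the mouse, with 44 and 204 UMIs. UBE2E2 was 1.60-fold lower in IT_C (1.12 to 2.37) and had a mouse ratio of 1.51 (1.11 to 2.02). AKAP11 in the opossum and UBE2E2 in both species lay close to the fold used. PDZRN3, AKAP11 and UBE2E2 were named after their values had been seen.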

How the results depend on the processing

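No paired analysis was possible because each species had 1 sample. Of 101 values under other settings, 75 stayed within 1.5 times the main count or within the interval used for the main value, 26 moved beyond it and none turned direction. The share of IT_C cells below the IT_B median was 85.2% with labels of the first 2 rounds and 81.4% without region 3. In first-round cells alone, added after the data had been seen, it was 100% and the median depth was 592 µm. The L5PT share among neighbors was 8.32% with the first 2 rounds. Thinning, a higher minimum and leaving out a region also lowered the number of genes compared, while the trimmed mean and the 2-fold limit did not. Against IT_A, 80 genes were higher and 102 lower with at least 50 UMIs expected, 40 and 32 after thinning to 300 UMIs, 182 higher with the trimmed mean, and 212 lower without region 2. Against IT_B, 83 and 90 remained with 50 UMIs expected, and there were 29 and 24 after thinning and 152 and 168 without region 2. Against L5PT, 57 and 53 remained with 50 UMIs expected, there were 11 and 4 after thinning, and 135 were higher without region 1. Between deeper and shallower IT_C cells, 117 genes of 315 were past 2-fold, 29 passed after thinning and 180 without region 2. DEPTOR in IT_C over L5PT was 0.453 after thinning. Similar counts held different genes. Weighting IT_A to the depth of IT_C kept 144 of the 285 higher and 120 of the 325 lower genes, and comparing only cells below the IT_B median, added after the data had been seen, kept 139 and 136. In the thinned comparison with L5PT, 4 of the 11 higher genes and 0 of the 4 lower were among those of the full counts. Depth limits genes under 20 expected UMIs, which were not compared.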
